A study of Mus musculus with 32 samples.

Results

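The elastic fibre genes were taken as 10 rows of a table of gene-level read counts from mouse lung, matched by Ensembl gene identifier to Eln, Fbn1, Fbln1, Fbln5, Lox, Loxl1, Mfap4, Mfap5, Ltbp4 and Emilin1. The table held 41687 rows, and each of the 10 genes had a row. Values were read in all 32 libraries, made from the lungs of 12 adult mice: 6 C57b/6 wild types (WT) and 6 Bmal1 knockouts (KO), bred in-house, aged 8 to 18 weeks and labelled female. The allele of the knockout and the cells it affects are not given in the sources used here, and no treatment is named in them for either genotype. Whole lung was snap-frozen, so that all cell types of the organ contribute RNA. RNA of each mouse was prepared as a RiboZero library, in which ribosomal RNA is pulled out, and as a PolyA library, in which polyadenylated RNA is selected, with 6 mice per genotype and 200 ng of input in each. Mice 3 to 6 of each genotype were also prepared without selection (NoSelect, 4 per genotype, 15 ng), with 6 preparations per mouse combined. The comparisons ask how the knockout, and how the choice of preparation, moved each of these genes.

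Elastic fibres give the lung its recoil. Cells secrete tropoelastin, the product of Eln, which gathers on microfibrils built mainly of fibrillins such as fibrillin-1 (Fbn1), and lysyl oxidases (Lox, Loxl1) then cross-link it into insoluble elastin. Fibulin-5 (Fbln5) and the latent TGF-beta binding protein encoded by Ltbp4 help to place elastin on the microfibril, fibulin-1 (Fbln1) lies within the elastin core, emilin-1 (Emilin1) sits at the border of elastin and microfibril, and Mfap4 and Mfap5 encode microfibril-associated proteins. In lung these genes are made mostly by fibroblasts, myofibroblasts and smooth muscle cells, with a contribution from vessel walls and mesothelium. BMAL1, the product of the gene with the symbol Arntl, drives the circadian clock and, as a partner of CLOCK, binds the E-box CACGTG.

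In GENCODE M21 on GRCm38 all 10 genes are annotated as protein coding. Eln spans chr5:134702593-134747323 on the minus strand and Emilin1 chr5:30913402-30921277 on the plus strand. Fbn1 is at chr2:125300594-125507993 (minus), Fbln1 at chr15:85205949-85286535 (plus), Fbln5 at chr12:101746565-101819055 (minus) and Ltbp4 at chr7:27305136-27337692 (minus). Loxl1 is at chr9:58287738-58313186 (minus), Mfap4 at chr11:61485431-61488900 (plus) and Mfap5 at chr6:122505845-122529290 (plus). Exons of Mfap4 share 89 bases with Mapk7 on the opposite strand, and those of Fbn1 share 2442 with Gm9913, which averaged 5.88 counts per library against 6789 for Fbn1. Antisense genes share 267 bases with Eln (Gm30003) and 30 with Lox. The sources used here do not say whether counting used strand. Mapk7 stood at 98.3% (RiboZero), 102% (PolyA) and 109% (NoSelect) of WT in the KO groups, where Mfap4 stood at 244%, 223% and 224%. Whether reads of the opposite strand entered these counts was not tested.

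Upstream sequence is shown for Fbln1 and Ltbp4, because they fell together in the KO lungs. Both stretches are the 250 bases before a RefSeq start (GRCm38.p6) and hold no annotated exon. The Fbln1 stretch, chr15:85205699-85205948 on the plus strand, ends at the first base before the gene, and the Ltbp4 stretch, chr7:27333664-27333913 on the minus strand, lies within an intron of the longest gene model, before the start of a shorter transcript. Capitals mark the E-box CACGTG.
Fbln1: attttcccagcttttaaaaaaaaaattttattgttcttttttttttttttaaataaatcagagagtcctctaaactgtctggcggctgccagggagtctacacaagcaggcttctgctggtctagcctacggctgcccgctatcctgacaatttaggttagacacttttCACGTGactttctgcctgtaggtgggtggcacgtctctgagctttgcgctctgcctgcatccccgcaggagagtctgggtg
Ltbp4: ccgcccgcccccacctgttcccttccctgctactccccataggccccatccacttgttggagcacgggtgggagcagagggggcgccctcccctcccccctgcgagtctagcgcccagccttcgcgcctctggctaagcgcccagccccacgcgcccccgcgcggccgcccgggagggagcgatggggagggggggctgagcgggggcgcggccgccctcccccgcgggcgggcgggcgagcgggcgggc
The E-box of Fbln1 begins 81 bases before the start. The motifs searched on both strands were the E-box CACGTG, the nuclear receptor half-site AGGTCA and the D-box TTATGTAA. The E-box was the only match in the Fbln1 stretch. Among 32851 RefSeq windows of 250 bases, 6.02% held the E-box, 14.0% the half-site and 0.819% the D-box. The Ltbp4 stretch held no match to the 3 motifs, and neither did the windows found for Fbn1, Fbln5 and Emilin1. A match describes the letters of a window, and binding was not measured.

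The libraries were checked against their labels before the genes were read. Totals ran from 11638590 to 25801192 counts in RiboZero, 29924271 to 41548759 in PolyA and 74979759 to 115059730 in NoSelect, of which 22009219 to 37100630 remained in NoSelect once Lars2 and the ribosomal RNA-derived Gm42418 transcript were set aside. Levels are given as counts per 1000000 counts (CPM) on a scale shared by all 32 libraries. Arntl averaged 30.9 ± 2.90 CPM in WT and 17.4 ± 1.31 in KO RiboZero libraries (SD, n = 6 each), 21.9 ± 1.82 and 18.6 ± 1.48 in PolyA (n = 6) and 28.7 ± 0.853 and 17.8 ± 0.959 in NoSelect (n = 4). WT and KO libraries overlapped for Arntl in PolyA and were apart in the other two preparations. Which part of Arntl is deleted is not given, so that reads outside it do not check the label. Mouse KO 6 went against its labels in other ways: its 3 libraries held 41.4 to 89.1 CPM of the Y-linked Ddx3y, which was at 0 in the other 29 libraries, and 0.0482 to 0.391 CPM of Xist, against 250 to 1578 elsewhere. Its NoSelect library is labelled as liver, yet the summed level of 8 hepatocyte markers was 5.52 CPM there against 2.43 to 5.20 in the other 7 NoSelect libraries, and that of 6 alveolar type 2 markers 10018 against 7188 to 9549 CPM. This mouse was kept, and values without it are given beside the calls.

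In the KO lungs Fbln1 and Ltbp4 were lower and Mfap4 was higher than in WT in all 3 preparations. Fbln1 stood at 47.6%, 46.3% and 53.3% of its WT mean in RiboZero, PolyA and NoSelect, Ltbp4 at 57.8%, 55.0% and 59.0%, and Mfap4 at 244%, 223% and 224%. Emilin1 was also lower in RiboZero, at 84.3% of WT. Eln itself, Fbn1, Fbln5, Lox, Loxl1 and Mfap5 passed the test in no preparation. A gene was called where edgeR's quasi-likelihood test gave an adjusted p (Benjamini-Hochberg, over every row tested) under 0.05. By this rule 4 of the 10 genes were called in RiboZero (1 higher, 3 lower), against 3.46% of 16710 rows tested (1.84% higher, 1.63% lower). In PolyA 3 were called (1 higher, 2 lower), against 4.03% of 17211 rows (1.62% and 2.41%), and in NoSelect 3 (1 higher, 2 lower), against 2.17% of 17124 rows (1.19% and 0.981%). The genes were chosen with earlier results of these data known, so that these shares do not test them as a set. All 10 passed the filter on low counts in every comparison. The median absolute log2 fold change of the 10 genes was 0.31, 0.31 and 0.33 in RiboZero, PolyA and NoSelect, beside 0.089, 0.097 and 0.094 over all rows. Their signed median was -0.15, -0.18 and -0.02, since genes moved in both directions. WT and KO libraries did not overlap for 4, 3 and 5 of the 10 genes, against 2.89%, 3.32% and 9.48% of all rows. Without mouse KO 6 the calls were again 4, 3 and 3. In whole lung, fewer cells of a type and less RNA per cell cannot be told apart.

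**Figure D1:**
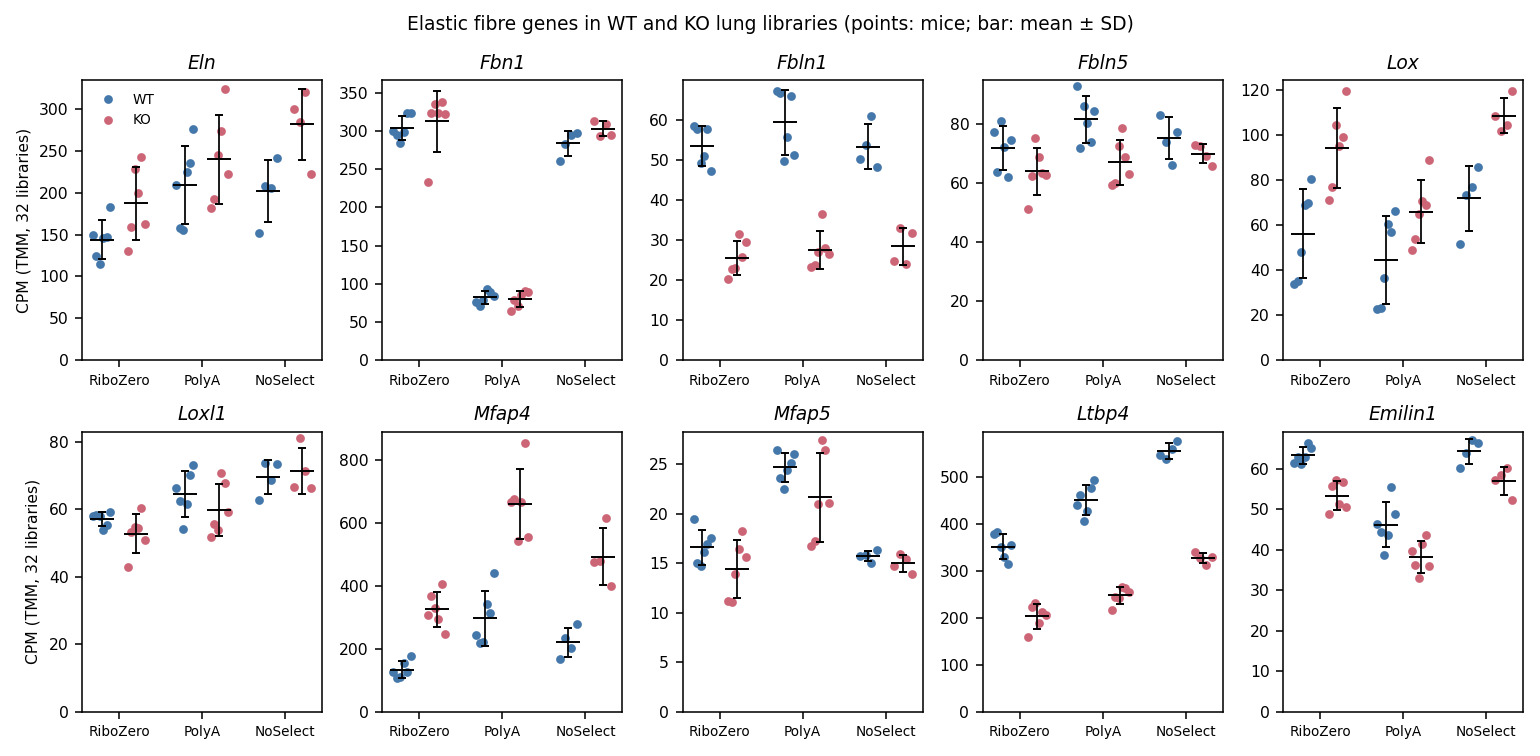
Level of each gene (CPM, linear axis from 0) in every library, by preparation, with WT in blue and KO in red; points are mice and bars the mean ± SD. The WT and KO points of Fbln1, Ltbp4 and Mfap4 are apart in all 3 preparations, while those of Eln overlap in each.

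Elastin, the core of the fibre, was measured at 115 to 182 CPM in the 6 WT RiboZero libraries (median 147). The KO RiboZero libraries ran from 131 to 242 (median 181). In PolyA the WT libraries ran from 155 to 276 CPM (median 217) and the KO libraries from 182 to 324 (median 234). In NoSelect the 4 WT libraries held 152, 208, 205 and 241 CPM and the KO libraries 300.2, 285, 320 and 222. The KO mean was the higher in each preparation, but the groups overlapped in all 3. The log2 fold change of Eln was 0.37 ± 0.15 (SE) in RiboZero (adjusted p = 0.226), 0.16 ± 0.17 in PolyA (0.669) and 0.48 ± 0.15 in NoSelect (0.172). The NoSelect difference had an adjusted p of 0.0263 by DESeq2 and was thus called by that tool.

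Fibrillin-1, the main protein of the microfibril, was close to level between the genotypes. Fbn1 averaged 304 ± 16.1 CPM in WT and 312 ± 39.5 in KO RiboZero libraries. Its means were 82.3 ± 8.34 and 79.9 ± 10.5 in PolyA, and 284 ± 16.6 and 303 ± 9.64 in NoSelect. Its log2 fold changes of 0.04, -0.08 and 0.09 had approximate 95% intervals of -0.12 to 0.20, -0.25 to 0.10 and -0.01 to 0.19. These intervals were built from the SE and are somewhat narrow for so few libraries. A change of the size of Fbln1, Ltbp4 or Mfap4 lies outside them. A lower value in the RiboZero library of mouse KO 1, at 233 CPM, widened the KO spread.

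Mfap4, which encodes a microfibril-associated glycoprotein that also binds elastin, was the gene that rose. RiboZero libraries held 107 to 178 CPM in WT (median 126) and 245 to 405 in KO (median 318). PolyA libraries held 217 to 439 CPM in WT (median 279) and 541 to 851 in KO (median 666). NoSelect libraries held 166, 234, 203 and 276 CPM in WT and 475, 478, 616 and 399 in KO. Every KO library lay above every WT library of its preparation, although the WT libraries differed among themselves by more than those of most genes. The log2 fold change was 1.28 ± 0.14 in RiboZero (adjusted p = 0.000269), 1.12 ± 0.18 in PolyA (0.00409) and 1.16 ± 0.18 in NoSelect (0.0160). Without mouse KO 6 it was 1.35, 1.18 and 1.25, with adjusted p of 0.000243, 0.00615 and 0.0156. The NoSelect call was lost without WT mouse 4 (adjusted p = 0.0533) or WT mouse 5 (0.0593), and the PolyA call with mice 3 to 6 alone (0.96, adjusted p = 0.0614).

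Mfap5, which encodes another microfibril protein, had the fewest counts of the 10 genes. It averaged 16.6 ± 1.78 CPM in WT and 14.4 ± 2.90 in KO RiboZero libraries, 24.7 ± 1.48 and 21.7 ± 4.49 in PolyA, and 15.7 ± 0.514 and 15.0 ± 0.868 in NoSelect. The groups overlapped in each preparation. Its log2 fold changes of -0.21, -0.22 and -0.07 were not called (adjusted p = 0.443, 0.348 and 0.586). Approximate 95% intervals, again built from the SE, were -0.45 to 0.04, -0.46 to 0.01 and -0.19 to 0.04.

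Emilin1, at the border of elastin and microfibril, was slightly lower in KO lungs. RiboZero libraries held 61.1 to 66.6 CPM in WT (median 62.9) and 48.8 to 57.3 in KO (median 53.6). PolyA libraries held 38.7 to 55.4 CPM in WT (median 45.5) and 33.0 to 43.6 in KO (median 38.0). NoSelect libraries held 60.2, 64.0, 67.1 and 66.4 CPM in WT and 57.2, 58.5, 60.2 and 52.2 in KO. The groups did not overlap in RiboZero or NoSelect and overlapped in PolyA. The fall by 0.25 ± 0.046 on the log2 scale in RiboZero was called (adjusted p = 0.00918; 0.0194 without mouse KO 6; 0.0670 with mice 3 to 6 alone). Log2 fold changes of -0.30 ± 0.090 in PolyA (adjusted p = 0.0858) and -0.18 ± 0.056 in NoSelect (0.164) were not, and DESeq2 called the PolyA difference (0.0267).

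Fbln1 encodes a fibulin that is found in elastic fibres and basement membranes, and it had the largest fall of the 10 genes in each preparation. RiboZero libraries held 47.2 to 58.5 CPM in WT (median 54.3) and 20.3 to 31.6 in KO (median 24.4). PolyA libraries held 49.8 to 67.1 CPM in WT (median 60.8) and 23.2 to 36.4 in KO (median 26.8). NoSelect libraries held 50.1, 53.7, 61.0 and 48.3 CPM in WT and 24.8, 33.1, 24.1 and 31.7 in KO. The gap between the lowest WT and the highest KO library was larger than the SD of either group in all 3 preparations. The log2 fold change was -1.07 ± 0.10 in RiboZero (adjusted p = 8.655e-05), -1.14 ± 0.12 in PolyA (0.000139) and -0.91 ± 0.12 in NoSelect (0.00799). Without mouse KO 6 it was -1.12, -1.12 and -0.96, each still called.

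Fbln5, a fibulin needed for elastic fibre assembly, lay lower in the KO means by less. It averaged 71.7 ± 7.50 CPM in WT and 63.8 ± 8.02 in KO RiboZero libraries, 81.4 ± 7.85 and 67.0 ± 7.58 in PolyA, and 75.02 ± 7.09 and 69.9 ± 3.34 in NoSelect, with overlap in each. The log2 fold changes were -0.17 ± 0.089, -0.32 ± 0.083 and -0.11 ± 0.070. The PolyA value was just outside the threshold (adjusted p = 0.0542). It passed by DESeq2 (0.00804), without WT mouse 2 (0.0325) and without KO mouse 4 (0.0316), so that this single value depends on which libraries are used.

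Ltbp4 encodes a protein that holds latent TGF-beta in the matrix and guides elastin onto microfibrils. RiboZero libraries held 315 to 383 CPM in WT (median 352) and 158 to 230 in KO (median 208). PolyA libraries held 407 to 492 CPM in WT (median 450) and 217 to 265 in KO (median 250). NoSelect libraries held 546, 538, 560 and 575 CPM in WT and 340, 326, 313 and 329 in KO. WT and KO libraries were far apart in every preparation, and in NoSelect the SD was 16.4 CPM in WT and 11.0 in KO around means of 555 and 327 CPM. The log2 fold change was -0.79 ± 0.084 in RiboZero (adjusted p = 0.000181), -0.90 ± 0.062 in PolyA (4.838e-06) and -0.77 ± 0.039 in NoSelect (5.618e-05). Ltbp4 was called under every alternative run for the genotype comparison, and without mouse KO 6 it was -0.80, -0.90 and -0.77.

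The cross-linking enzymes differed from each other. Lox, the founding lysyl oxidase, held 33.7 to 80.6 CPM in WT (median 58.5) and 71.3 to 119 in KO (median 96.8) RiboZero libraries. PolyA libraries held 22.7 to 66.4 CPM in WT (median 46.8) and 48.8 to 88.8 in KO (median 66.9). NoSelect libraries held 51.4, 73.4, 76.8 and 85.6 CPM in WT and 109, 102, 105 and 119 in KO. The groups overlapped in RiboZero, where KO mice 1 (71.3 CPM) and 2 (76.7) lay below WT mouse 6 (80.6). They overlapped in PolyA too, where KO mice 1 (48.8), 2 (53.6) and 3 (65.0) lay below WT mouse 6 (66.4). They were apart in NoSelect, which holds mice 3 to 6 alone. Log2 fold changes of 0.74 ± 0.22 (adjusted p = 0.0843), 0.54 ± 0.27 (0.321) and 0.59 ± 0.14 (0.0736) missed the threshold. DESeq2 called Lox in RiboZero (0.0113) and NoSelect (0.000926), and edgeR called it in NoSelect without WT mouse 3 (0.0283). Loxl1, which encodes an enzyme that acts on elastin and binds fibulin-5, averaged 57.2 ± 2.07 CPM in WT and 52.8 ± 5.84 in KO RiboZero libraries, 64.7 ± 6.81 and 59.9 ± 7.77 in PolyA, and 69.7 ± 5.14 and 71.5 ± 6.85 in NoSelect. Its log2 fold changes of -0.12, -0.14 and 0.03 were not called and did not share a sign.

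**Figure D2:**
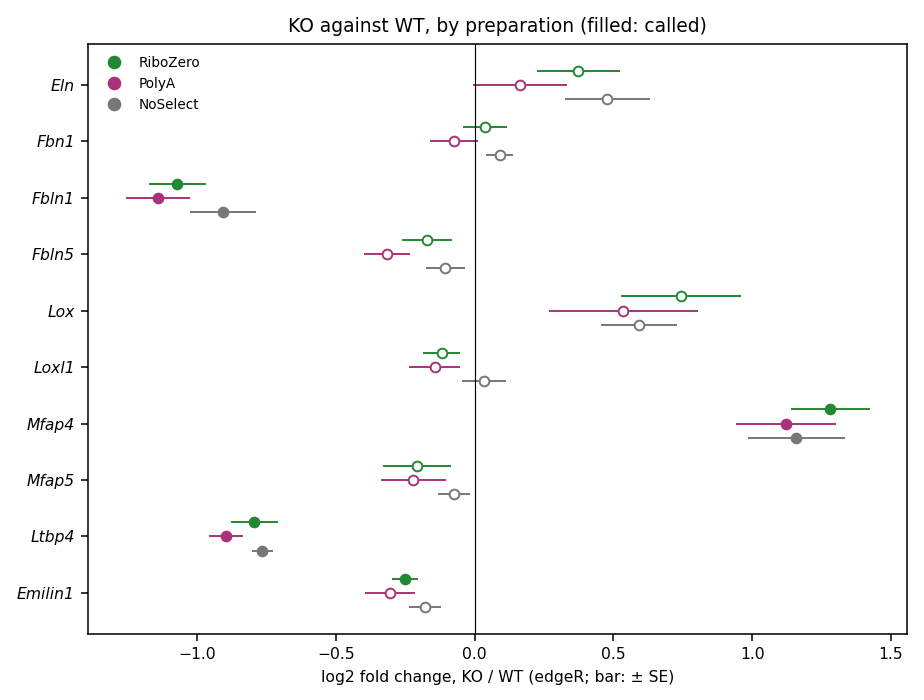
Log2 fold change of KO against WT for each gene (x axis; bars ± SE, edgeR) in the 3 preparations, filled where called. Fbln1 and Ltbp4 lie left of 0 and Mfap4 right of 0 in all 3, and the filled point of Emilin1 is the RiboZero one.

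The knockout difference of these genes was not found to depend on the preparation. In tests of the interaction of genotype and preparation, 0 of the 10 genes were called for PolyA against RiboZero, PolyA against NoSelect and RiboZero against NoSelect by edgeR or by DESeq2, and 0 had an unadjusted p under 0.05. Over all rows 0% were called by edgeR, with 331, 412 and 244 rows (1.82%, 2.24% and 1.39%) at an unadjusted p under 0.05. These shares are below what chance gives, so that this test could miss a difference. The models did not pair the libraries of a mouse. With the mouse as a block 0 of the 10 genes were called as well. The interaction of Fbln5 between PolyA and NoSelect had the lowest p of the 10 genes, at 0.0741. For Mfap4 the difference between the KO effects in PolyA and RiboZero was -0.14 ± 0.24 on the log2 scale, and for Ltbp4 it was -0.08 ± 0.11. The preparations share the mice, so that the 3 knockout results are not 3 independent experiments.

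The preparation itself moved Fbn1 more than any of the other 9 genes. PolyA libraries held less Fbn1 than RiboZero libraries by a log2 fold change of -1.93 ± 0.065 (adjusted p = 5.42e-19) and less than NoSelect libraries by -1.84 ± 0.062 (1.791e-16). Across 361 protein-coding rows whose transcripts are at least 10000 bases long, the median log2 fold change of PolyA against RiboZero was -1.60, and 34.6% were at or below Fbn1, whose longest transcript has 11971 bases. The median was 0.61 for the 3758 rows under 2000 bases, 0.06 for 7879 rows from 2000 to 5000 and -0.74 for 2727 rows from 5000 to 10000. Fbn1 moved with the other long transcripts, and the part of length in its change was not tested.

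Mfap4, the shortest of the 10 genes with a longest transcript of 1770 bases, was higher in PolyA than in RiboZero by 1.08 ± 0.12 (adjusted p = 6.791e-09), and this was the other call, since calls between preparations also had to reach a log2 difference of 1 in either direction. These were 2 of the 10 genes against 21.8% of 17228 rows. At an adjusted p under 0.05 alone 8 of the 10 differed, against 81.8% of rows: Eln (0.44 ± 0.12), Mfap5 (0.58 ± 0.088), Ltbp4 (0.32 ± 0.053) and Loxl1 (0.18 ± 0.058) were also higher in PolyA, and Emilin1 (-0.47 ± 0.049) and Lox (-0.43 ± 0.18) lower. Fbln1 (0.12 ± 0.079, adjusted p = 0.149) and Fbln5 (0.12 ± 0.064, 0.0800) missed this threshold. With the mouse as a block, since each lung gave both libraries, all 10 passed it. Fbln1 then had an adjusted p of 0.0014 and Fbln5 of 0.00099. The share of all rows passing with the block is not given here, so that this count does not set the 10 genes apart. PolyA against NoSelect gave 1 call, that of Fbn1, against 24.2% of 17554 rows, and RiboZero against NoSelect gave 0, against 3.79% of 16661 rows. Of the 10 genes 4 had an adjusted p under 0.05 in the last comparison, against 47.3% of rows, and all 4 were lower in RiboZero: Eln (-0.54 ± 0.11), Loxl1 (-0.37 ± 0.054), Mfap4 (-0.67 ± 0.12) and Ltbp4 (-0.68 ± 0.054). With the mouse as a block 7 passed, the added genes being Fbn1 (adjusted p = 8.021e-07), Fbln5 (0.0195) and Lox (0.00084). Here too the share of all rows with the block is not given, so that this count cannot be set against it. The selection and the amount of input RNA differ together between NoSelect and the other preparations and cannot be told apart.

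**Figure D3:**
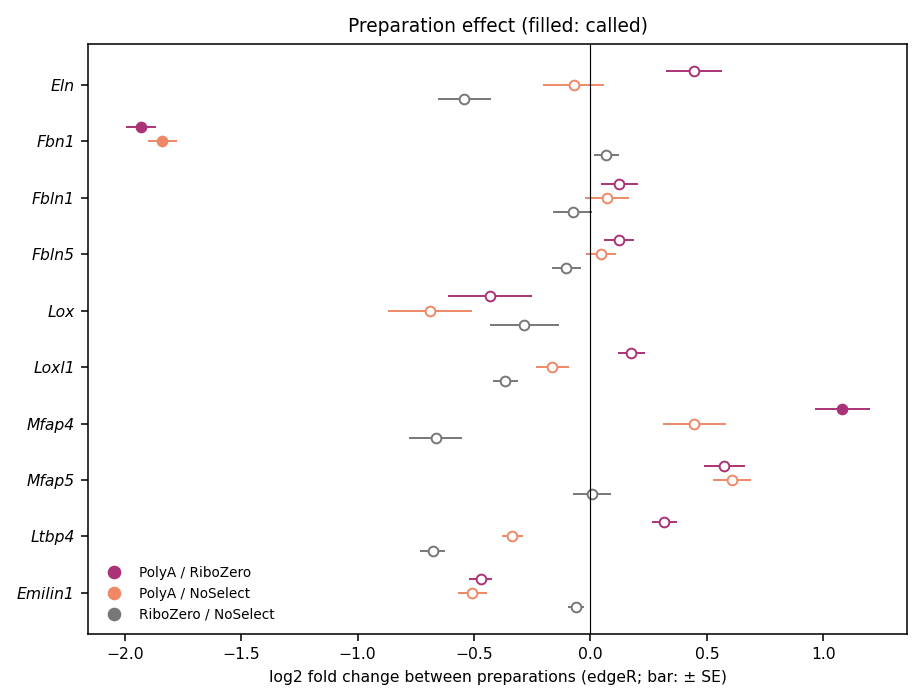
Log2 fold change between preparations for each gene (x axis; bars ± SE, edgeR, genotype in the model), filled where called. The PolyA points of Fbn1 lie at -1.93 and -1.84 and that of Mfap4 against RiboZero at 1.08, while the RiboZero and NoSelect libraries differ by less than 1 for all 10 genes.

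Levels of different genes were compared per kilobase of annotated exon. By that length Mfap4 had the highest mean level and Ltbp4 the next in each preparation and genotype. In WT RiboZero libraries Mfap4 stood at 69.3 ± 14.4 CPM per kb and Ltbp4 at 54.4 ± 4.14, with overlapping ranges, followed by Fbn1 at 25.1 ± 1.33. Eln (17.8 ± 2.88) and Loxl1 (17.3 ± 0.627) overlapped each other. Emilin1 (12.84 ± 0.431), Fbln1 (12.3 ± 1.14), Lox (11.7 ± 4.13) and Fbln5 (10.4 ± 1.08) each overlapped the next in that order. Mfap5 was the lowest, at 4.63 ± 0.495. In KO RiboZero libraries Mfap4 stood at 169 ± 29.3 and Ltbp4 at 31.4 ± 4.06 CPM per kb, so that the ranges of this pair overlapped in WT and were apart in KO. Fbln1 ranked 7 in WT and 9 in KO.

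The order differed between preparations mainly for Fbn1. In WT PolyA libraries it had the lowest mean, at 6.78 ± 0.688 CPM per kb, with overlap with Mfap5 at 6.89 ± 0.413, while Mfap4 stood at 154 ± 45.0, Ltbp4 at 69.7 ± 4.91 and Eln at 25.9 ± 5.77. In WT NoSelect libraries Mfap4 stood at 114 ± 24.4, Ltbp4 at 85.8 ± 2.54, Eln at 24.9 ± 4.55 and Fbn1 at 23.4 ± 1.37 CPM per kb. The place of Eln depends on the length used, because its annotated exons sum to 8098 bases and its longest transcript has 3853. Over the longest transcript Eln stood at 37.4 CPM per kb in WT RiboZero libraries and ranked 3, with Mfap4 and Ltbp4 still the highest pair in WT. In KO libraries Eln ranked 2 by that length, above Ltbp4, at 48.6 and 37.7 CPM per kb in RiboZero, 62.2 and 46.0 in PolyA and 73.1 and 60.7 in NoSelect, with overlapping ranges in each.

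**Figure D4:**
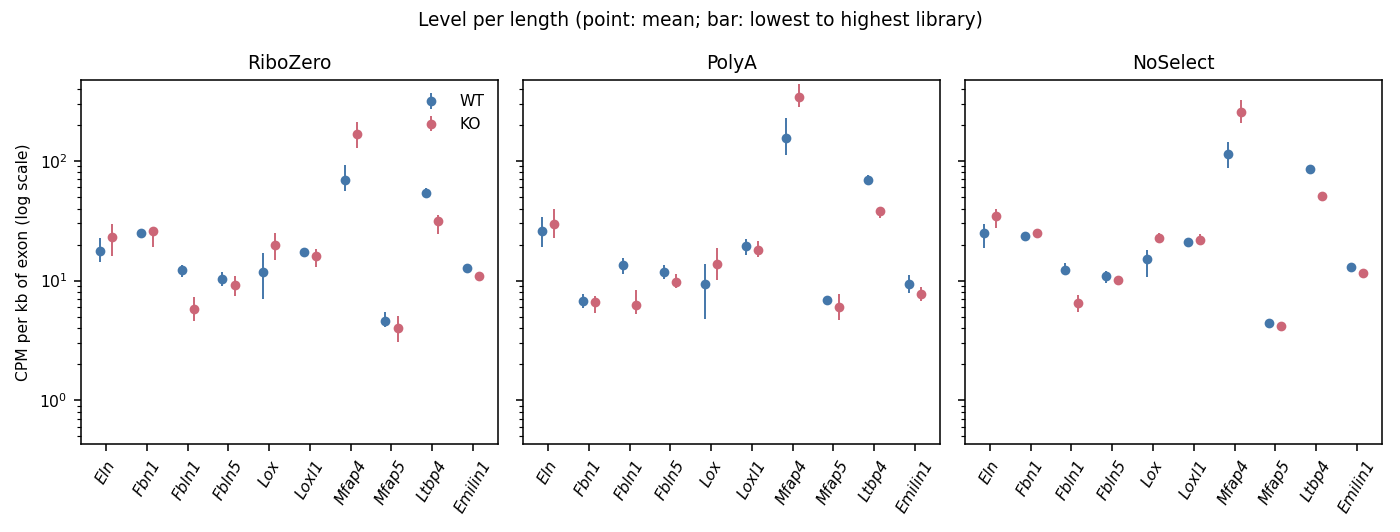
Level per kilobase of annotated exon (CPM per kb, log axis) of the 10 genes in each preparation; points are means and bars run from the lowest to the highest library, WT in blue and KO in red. Mfap4 is highest in each panel, and Fbn1 in WT is at 25.1 in RiboZero and 6.78 in PolyA.

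Among WT mice Lox varied more than the other 9 genes in RiboZero and PolyA. Its coefficient of variation over WT mice was 35.2% in RiboZero, 43.8% in PolyA and 20.3% in NoSelect, at percentiles 98.0, 98.4 and 95.1 of the rows compared, whose medians were 7.08%, 8.12% and 5.35%. NoSelect lacks WT mice 1 and 2, the lowest for Lox in the other preparations, so that its values come from a different set of mice. WT mice 1, 2 and 3 held 33.7, 35.4 and 48.1 CPM of Lox in RiboZero and WT mice 4, 5 and 6 held 69.0, 69.8 and 80.6. In PolyA, which used the same lungs, the values were 22.7, 23.2 and 36.5 against 60.5, 57.1 and 66.4. The split of the WT mice was thus present in both preparations. KO mice 1 and 2 were also the lowest of their genotype, at 71.3 and 76.7 CPM in RiboZero and 48.8 and 53.6 in PolyA. Over WT mice Mfap4 varied by 20.7%, 29.2% and 21.3%, the last above Lox, and Eln by 16.2%, 22.3% and 18.3%, while Emilin1 (3.36%) and Loxl1 (3.61%) were among the steady rows in RiboZero. Over KO mice Lox varied by 18.9%, 21.4% and 7.14%, below Eln in each preparation (23.2%, 22.1% and 15.0%). Mouse KO 1 had the lowest KO value for 8 of the 10 genes in RiboZero and for 8 in PolyA. In NoSelect, which lacks that mouse, the library of mouse KO 6 was the lowest for 6. WT mouse 6 had the highest WT value for 5, 5 and 6 genes in RiboZero, PolyA and NoSelect, and WT mouse 3 the lowest for 4, 6 and 6.

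Among 17565 rows ranked by the lower of their correlations with Eln in RiboZero and in PolyA (log2 CPM over the same 12 mice), the 5 most alike with a symbol were Lmf2 (r = 0.849), Npnt (0.805), Gm9917 (0.804), Eepd1 (0.788) and Mmp14 (0.781). Lox came at rank 53 (0.665), Mfap4 at 142 (0.598) and Fbn1 at 249 (0.540). Fbln1 had correlations of -0.477 in RiboZero and -0.197 in PolyA (rank 15043), and Ltbp4 of -0.407 and -0.166 (rank 13919). These values describe 12 mice of 2 genotypes whose libraries also share depth and tissue composition.

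Other genes of elastic fibre biology were read from a list of 84, of which 76 were tested in RiboZero, 79 in PolyA and 76 in NoSelect. Called were 20 in RiboZero (6 higher, 14 lower in KO; 26.3% of those tested, against 3.46% of all rows), 18 in PolyA (3 higher, 15 lower; 22.8% against 4.03%) and 12 in NoSelect (4 higher, 8 lower; 15.8% against 2.17%). Their median log2 fold change was -0.09, -0.16 and -0.04, beside -1.2e-05, -0.0029 and 0.00053 over all rows. The list was chosen with earlier results of these data known, so that its shares are not a test of it. Called in all 3 preparations were 9 genes, of which 7 fell and 2 rose. Without mouse KO 6 the counts were 15, 13 and 15, and leaving out each library in turn gave 11 to 19, 10 to 20 and 5 to 15. The count moved by over 1.5 times without WT 3, 4, 5 or 6 or KO 2, 4 or 5 in RiboZero (11 to 13), WT 3 or 5 or KO 2 or 4 in PolyA (10 or 11), and WT 3, 4, 5 or 6 or KO 4 in NoSelect (5 to 7).

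Among glycoproteins and proteoglycans of the fibre and its surroundings, 7 of 16 tested fell in RiboZero, 8 of 17 in PolyA and 5 of 16 in NoSelect, and 1 rose in each. Of all rows 1.63%, 2.41% and 0.981% were called lower in RiboZero, PolyA and NoSelect, and 1.84%, 1.62% and 1.19% higher. Tnxb, which encodes the matrix glycoprotein tenascin-X, fell from 246 ± 23.5 to 158 ± 21.0 CPM in RiboZero, from 117 ± 11.0 to 72.7 ± 6.39 in PolyA and from 270 ± 23.5 to 187 ± 13.7 in NoSelect. Fn1 (fibronectin, on which microfibrils are laid down) fell to 65.7%, 62.5% and 64.7% of WT. Efemp1 (fibulin-3) fell by 0.55, 0.67 and 0.59 on the log2 scale, and Vcan (versican, a proteoglycan that binds microfibrils) by 0.73, 0.81 and 0.62. Bgn (biglycan, which binds tropoelastin) fell by 0.40, 0.53 and 0.43. Dcn (decorin) and Fbln2 (fibulin-2) fell in PolyA, by 0.78 and 0.49, and had log2 fold changes of -0.51 and -0.53 (Dcn) and -0.30 and -0.16 (Fbln2) in RiboZero and NoSelect without a call.

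Fbn2, the fibrillin of developing tissue, was the member of this group that rose. It was at a low level: 2.12 ± 0.357 CPM in WT and 4.41 ± 1.38 in KO RiboZero libraries, 0.410 ± 0.108 and 0.929 ± 0.273 in PolyA, and 1.97 ± 0.450 and 4.83 ± 0.480 in NoSelect, with 14 to 197 counts per library. WT and KO libraries overlapped in RiboZero and PolyA and were apart in NoSelect. Its log2 fold change was 1.05 ± 0.21 (adjusted p = 0.0164), 1.14 ± 0.24 (0.0206) and 1.29 ± 0.17 (0.00797).

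Among genes of cross-linking and secretion, 3, 3 and 1 of 17 fell in RiboZero, PolyA and NoSelect and 0 rose. Over all rows 1.63%, 2.41% and 0.981% were called lower and 1.84%, 1.62% and 1.19% higher in these preparations. Adamtsl5, which encodes an ADAMTS-like protein that binds fibrillins, fell by 0.42, 0.35 and 0.33 on the log2 scale. Loxl4 and Adamtsl2, named after their values were seen, were the others called lower in RiboZero and PolyA. The lowest log2 fold change of any gene in this list was -1.45, -1.46 and -1.26, the last without a call. Of the LTBP and TGF-beta genes 1 of 13 fell in RiboZero and in PolyA and 0 were called in NoSelect. The gene that fell was Ltbp2, which is named after its values were seen. Like Ltbp4 it had log2 fold changes below 0 in all 3 preparations, while Ltbp1 and Ltbp3 were called in none. Differences between Ltbp4 and these genes were not tested. Of the proteases 4 of 10 rose in RiboZero, 2 of 11 in PolyA and 2 of 10 in NoSelect, and 1 fell in PolyA. Mmp14, a membrane-bound matrix metalloproteinase, rose in RiboZero (0.33 ± 0.080, adjusted p = 0.0397) and NoSelect (0.48 ± 0.063, 0.00799) and had a log2 fold change of 0.28 in PolyA (0.133). Adam17, a sheddase that rose in all 3 preparations and is named after its values were seen, stood at 116%, 118% and 114% of WT. Of the protease inhibitors 2 of 11 fell in RiboZero, 1 of 12 in PolyA and 1 of 11 in NoSelect. Timp3, a matrix-bound inhibitor of metalloproteinases, fell to 64.3%, 61.0% and 63.6% of WT. Of 9 integrin genes 1 rose and 1 fell in RiboZero and in NoSelect and 1 fell in PolyA. Itgb3, a subunit of the vitronectin receptor, rose in RiboZero (0.39 ± 0.069) and NoSelect (0.40 ± 0.079) and stood at 0.31 ± 0.10 in PolyA.

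**Figure D5:**
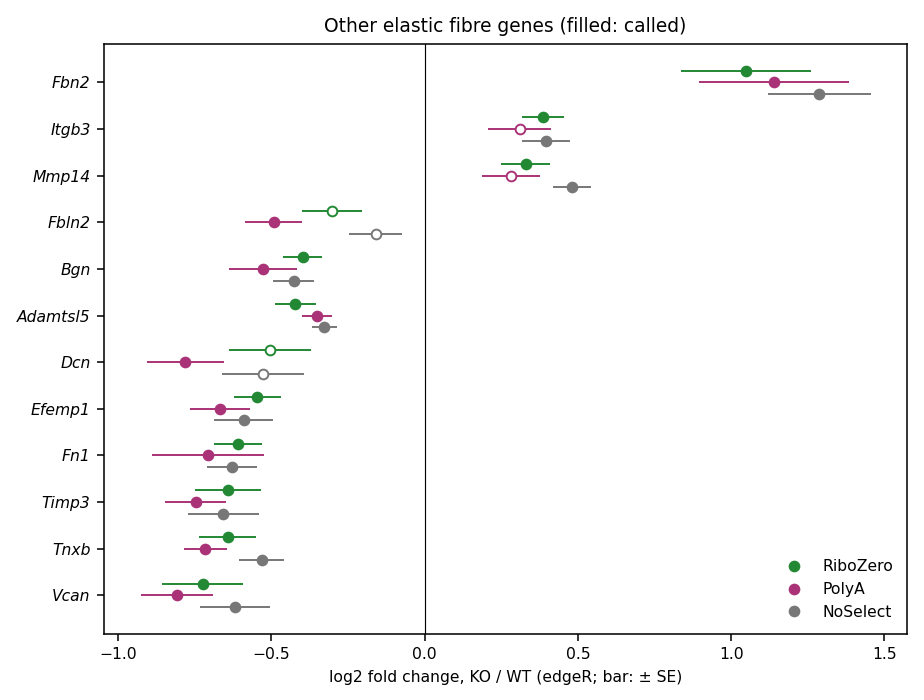
Log2 fold change of KO against WT (x axis; bars ± SE, edgeR) of the 12 other elastic fibre genes named by rule, in the 3 preparations, filled where called. The points of Fbn2 lie to the right of the other genes, and Tnxb, Timp3, Fn1, Efemp1, Vcan, Bgn and Adamtsl5 are filled and left of 0 in all 3.

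Markers of cell types that could supply these RNAs were read from the same fits, and their lists too were chosen with earlier results known. Of 8 adventitial fibroblast markers 3, 5 and 2 fell in RiboZero, PolyA and NoSelect and 0 rose, where 1.63%, 2.41% and 0.981% of all rows were called lower. Pi16 fell by 1.07 in RiboZero and 1.18 in PolyA and had a log2 fold change of -0.87 in NoSelect (adjusted p = 0.0560), and Dpt fell by 0.46, 0.57 and 0.42, while Ly6a and Cd34, the most abundant of the list, were not called. Pi16 and Dpt are named after their values were seen. Of the 8 markers 2, 1 and 2 had log2 fold changes above 0 in RiboZero, PolyA and NoSelect. Summed over the 8 markers, WT libraries held 531 to 556 CPM in RiboZero and KO libraries 458 to 539. In PolyA the sums were 800 to 874 and 711 to 827, and in NoSelect 498 to 530 and 422 to 500. WT and KO sums overlapped in all 3 preparations. The list shares Dcn with the list above. Myofibroblast markers summed to 121 to 133 CPM in WT and 109 to 118 in KO RiboZero libraries, with 1 of 7 higher and 1 lower by the test, and 3 of 7 fell in PolyA and 1 rose in NoSelect. The part of these cells in the falls of Fbln1, Ltbp4 and the other genes was not tested.

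Alveolar fibroblast markers summed higher in KO, at 1981 to 2467 CPM in WT and 2346 to 2851 in KO RiboZero libraries and 2051 to 2234 and 2374 to 2558 in NoSelect, with 1, 0 and 2 of 7 called, all higher, where 1.84%, 1.62% and 1.19% of all rows were called higher in RiboZero, PolyA and NoSelect. The alveolar fibroblast sums overlapped in RiboZero and also in PolyA, at 1322 to 2025 and 1743 to 2359 CPM, and were apart in NoSelect. Of the 7 markers 2 had log2 fold changes below 0 in each preparation. Npnt, an alveolar fibroblast marker that came second in likeness to Eln, had log2 fold changes of 0.33 (adjusted p = 0.135), 0.20 (0.420) and 0.39 (0.00730). Pericyte markers summed to 583 to 638 CPM in WT and 703 to 791 in KO NoSelect libraries, with 1, 1 and 2 of 7 called, all higher. The pericyte sums overlapped in RiboZero, at 579 to 656 CPM in WT and 538 to 825 in KO, and in PolyA, at 393 to 460 and 397 to 583. Smooth muscle markers summed to 443 to 731 CPM in WT and 481 to 561 in KO RiboZero libraries, with 0 of 7 called in each preparation. Mesothelial markers summed to 154 to 241 CPM in WT and 124 to 191 in KO RiboZero libraries. By the test 1, 0 and 1 of 6 were higher and 0 lower, while 5 of the 6 had log2 fold changes below 0 in each preparation, with list medians of -0.37, -0.33 and -0.51. Cartilage markers, which would mark airway cartilage in the sample, summed to 0.255 to 1.19 CPM over all libraries, with 1 to 4 of 7 at 0 in all libraries of a group. Endothelial, airway and pulmonary vein cardiomyocyte markers had 0 calls in each preparation. Their sums in WT RiboZero libraries were 2811 to 3391, 7915 to 13307 and 98.2 to 411 CPM. In KO RiboZero libraries they were 3240 to 3926, 10889 to 14255 and 52.8 to 286 CPM. The part of these cell types in the rise of Mfap4 was not tested.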

How the data were processed

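RNA of 12 mouse lungs was sequenced in 32 libraries. The authors deposited a single table of estimated counts per gene, quantified with Salmon 1.4.0, with UMI-tools 1.1.1 named as well, per the submitters' processing notes, which also name GRCm38. The index and the use of strand in counting are not given in the sources used here. Of the values 12.81% were not whole, so the estimated counts were rounded. All 32 columns were matched to a sample by name. Replicates within a group differed by at least 6.67 chi-square per degree of freedom over 72 pairs, so each library counted as a replicate.

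Genes were tested in R 4.3.3 with edgeR 4.0.16 (TMM scaling, filterByExpr, glmQLFit, glmQLFTest) and Benjamini-Hochberg adjustment over all rows. Within a preparation the model held genotype alone (KO against WT), preparations were compared with genotype as a covariate, and KO effects were compared between preparations as an interaction. CPM were scaled by TMM over all 32 libraries. Lengths and coordinates came from GENCODE M21 and upstream sequences from RefSeq (GRCm38.p6). RefSeq windows were found for Fbn1, Fbln1, Fbln5, Ltbp4 and Emilin1. The correlations used log2 CPM with a prior count of 2, computed with Python 3.11.15, pandas 2.3.3 and numpy 2.4.6. The fits were tested on simulated data.

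The 10 genes and the lists were chosen with earlier results of these data known. All 10 are named. Of the 84 other genes, those called in at least 1 preparation are named, up to 12 by smallest adjusted p. The 5 rows most like Eln are named too, and the 2 most abundant genes of a marker list may be.

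Other settings tried were median-of-ratios size factors, DESeq2 1.42.0, no filter or a mean of at least 10 counts, removal of Lars2 and the Gm42418 row, a replicate block, mice 3 to 6 alone, and leaving out libraries. Libraries of a mouse are paired across preparations because the labels number the animals. Over 14598 rows their deviations from the group means correlated at 0.236 to 0.650, and each library was most like its own mouse in 12 of 12, 8 of 8 and 8 of 8 cases.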

Additional observations from a re-analysis of the deposited data

Results flagged for a closer look

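Among 60 groups of 4 to 6 libraries, those of the 10 genes by preparation and genotype, 2 held a library whose gap to its nearest neighbour was large against the range of the group, where chance gives about 1 in 20 groups. The RiboZero library of mouse KO 1 had the lowest Fbn1 level, at 233 CPM, with the next KO library at 322 CPM. The PolyA library of mouse KO 4 had the highest Fbln1 level of its group, at 36.4 CPM, with the next at 28.1 CPM. It still lay below the lowest WT library, at 49.8 CPM.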

How the results depend on the processing

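Fbln1, Ltbp4 and Mfap4 kept their direction in each preparation under every alternative run. The depth of 11638590 counts in the smallest library limits low genes such as Fbn2 more than the 10 genes. DESeq2 called 5 of the 10 genes in PolyA and 5 in NoSelect, and over all rows it made 976 RiboZero, 1355 PolyA and 878 NoSelect calls, against 579, 694 and 372 by edgeR. Of the other elastic fibre genes it called 27 in NoSelect. For the interactions DESeq2 called 11, 13 and 9 rows, and that of Mfap5 between PolyA and RiboZero turned to -0.00098. A number shared by a WT and a KO mouse names 2 animals: their deviations correlated at -0.187 to 0.243, and 2 of 6, 2 of 6 and 2 of 4 pairs were most alike within their own number. With the replicate block on those numbers 372 rows were called in RiboZero and 103 in NoSelect, 11 and 2 of the other elastic fibre genes, and 1 of the 10 genes in NoSelect, where Fbln1 (adjusted p = 0.0636) and Mfap4 (0.0866) were lost. Lox in RiboZero (0.0153) and Emilin1 in PolyA (0.0325) were gained.

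With the mouse as a replicate block, 1 row was called in each interaction. The interactions then turned in sign for Loxl1 (0.0014) between PolyA and RiboZero, for Fbln1 (0.0056) and Mfap5 (0.046) between PolyA and NoSelect, and for Eln (0.0088), Fbn1 (0.0071), Fbln1 (0.0071), Mfap5 (0.054) and Ltbp4 (0.070) between RiboZero and NoSelect. Mice 3 to 6 alone gave 255 rows in RiboZero and 10 and 11 of the other elastic fibre genes in RiboZero and PolyA. With fewer mice the tests have less power. With no filter on low counts the preparation calls were 6552, 7039 and 1100 rows, from more rows tested. The Eln difference of PolyA against NoSelect turned to 0.015 with no filter, 0.037 with the mouse block and 0.043 with mice 3 to 6. Without mouse KO 6 the Mfap5 difference of RiboZero against NoSelect turned to -0.0097 and the Fbln1 interaction of PolyA and RiboZero to 0.0088. The causes of these turns were not tested.

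Leaving out each library in turn called 380 to 644 RiboZero rows, 442 to 1066 PolyA rows and 148 to 472 NoSelect rows, and 11 to 19, 10 to 20 and 5 to 15 of the other elastic fibre genes. Of the 10 genes 4, then 3 to 4, then 2 to 4 were called. Loxl1 in NoSelect ran from -0.033 to 0.069. Over the longest transcript, the levels in WT RiboZero, PolyA and NoSelect libraries were 65.3, 83.6 and 103.0 CPM per kb for Ltbp4, 37.4, 54.4 and 52.4 for Eln, 16.5, 12.02 and 16.7 for Emilin1, 14.6, 16.2 and 14.6 for Fbln1, 12.3, 14.0 and 12.9 for Fbln5, and 6.68, 9.92 and 6.32 for Mfap5. By Spearman correlation 3 of the 5 rows most like Eln were again among the first 5.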

Other observations

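The 10 genes together took similar shares of the reads in both genotypes, a sum that holds the rise of Mfap4 and the falls of Ltbp4 and Fbln1. Leaving out Lars2 and the Gm42418 transcript, they held 0.158% ± 0.00993 of the counts in WT and 0.167% ± 0.0176 in KO RiboZero libraries. The shares were 0.219% ± 0.0301 and 0.238% ± 0.0325 in PolyA, and 0.187% ± 0.0156 and 0.199% ± 0.0193 in NoSelect (SD). The ranges of WT and KO overlapped in each preparation. No test was run on this share.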
